A study of Mus musculus with 9 samples.

Results

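Sox9-labelled kidney cells collected 14 days after ischemia-reperfusion injury (d14) were set against Sox9-labelled cells collected 48 h after the same injury, over every gene. The comparison takes 6 of the 9 libraries of the series, chosen by their labels: 3 of the late cells and 3 of the early cells. Of the 55385 genes in the table, 15519 had enough counts to be tested. Both groups came from male Sox9IRES-CreERT2/+:R26RtdT/+ mice of 25 to 30 g, 9 to 12 weeks old, with ischemia-reperfusion of both kidneys. In these mice a Cre recombinase that works only under tamoxifen is made from 1 Sox9 allele, and it switches on the red fluorescent protein tdTomato for good in any cell that expresses Sox9 at that time, whatever its place in the nephron. For the 48 h group tamoxifen was given at the injury. For the d14 group it was given on days 10 and 12 after the injury. The time since injury and the window of labelling therefore changed together and cannot be told apart. Cells with tdTomato were sorted from digested cortex and outer medulla, and up to 30 ng of their RNA went through poly-A selection into a strand-specific library. The other 3 libraries hold tdTomato-sorted proximal tubule cells of uninjured Slc34a1IRES-CreERT2/+:R26RtdT/+ mice, and they serve here as a reference level and in the estimate of spread. The labels call the libraries of a group biological replicates and do not say how many animals went into each.

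Sox9 encodes a transcription factor of the developing kidney that surviving tubule epithelium switches on after injury. Most of that epithelium is proximal tubule, which reclaims filtered solutes, lives on fatty acid oxidation and is the segment most exposed to ischemia. Cells that repair well switch Sox9 off again and regain transport, while cells in which it persists have been tied to incomplete repair, inflammation and fibrosis. The study asked how the cells that keep Sox9 on differ from those that switch it on early.

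The libraries held 8036054 to 23794029 counts at 48 h and 19239354 to 30414758 counts at d14. Levels below are given as CPM, counts divided by library size, with sizes scaled by TMM, a method that aligns libraries on the bulk of their genes. They rank a gene across libraries and not genes against each other, since they are not per length. The leading principal component of the 6 libraries carried 51.8% of the variance and separated the groups. The next carried 24.5% and set 48 h replicate 2, the shallowest library, apart from the other replicates of its group. The biological coefficient of variation was 0.399 at 48 h and 0.249 at d14. Mitochondrially encoded transcripts took 32.7 to 39.2% of counts at 48 h and 15.2 to 25.2% at d14. TMM factors were 0.848 to 0.912 and 1.21 to 1.48, and without them the all-gene median of the log2 fold change moved by 0.574, from 0.05 to 0.63. All changes below are relative to the bulk of genes.

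Of 15519 genes tested with edgeR's quasi-likelihood test, 33.1% passed an adjusted p of 0.05: 2604 (16.8%) were higher at d14 and 2533 (16.3%) lower. Without TMM the calls were 6812 higher and 934 lower, so the split moved from 50.7% to 87.9% higher. A test against a 2-fold change kept 333 higher and 321 lower. All 3 d14 libraries lay above all 3 at 48 h for 26.7% of genes and below them for 20.6%. Fold changes below are log2 values, d14 minus 48 h, each with its standard error. Values set in threes are replicates 1 to 3, and a gene is said to have risen, fallen or gone from early to late values only where its adjusted p was below 0.05. In every called gene given by its 6 values the groups did not overlap. List counts are over the members with enough counts to test, and a gene could pass that filter through 1 group alone. Counts of 4 or fewer members of a gene list moved by more than 1.5 times in many lists when a single library was left out, so they describe these 6 libraries only. Where a list below had no member called in a direction by edgeR, none was called there by DESeq2 or limma voom or had an unadjusted p below 0.05, apart from 7 lists whose values are given with them.

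Among the 12 genes with the largest rise was Abca13, which encodes a very large ABC transporter (chromosome 11, 9191942 to 9684259, GENCODE M21 on GRCm38). Its level was 24.1, 9.05 and 10.7 CPM at 48 h and 239, 542 and 499.7 CPM at d14, where uninjured cells averaged 11.9. The groups did not overlap, and the log2 fold change was 4.84 ± 0.45, adjusted p = 0.000115. Sfrp1, a secreted antagonist of Wnt ligands (chromosome 8, 23411502 to 23449632), stood at 26.6, 14.4 and 14.4 CPM at 48 h and 195, 308 and 333 CPM at d14 (3.90 ± 0.32, adjusted p = 4.66e-05). Lrrn1, a leucine-rich repeat membrane protein (chromosome 6, 107529768 to 107570214), went from 1.35, 2.16 and 1.75 to 31.9, 36.9 and 32.9 CPM (4.32 ± 0.27), and within each group its libraries lay close together. Atp4a, the catalytic subunit of a proton-potassium pump, went from 11.7, 4.31 and 5.02 to 75.8, 131 and 167 CPM (4.11 ± 0.41). Low at 48 h and clearly counted at d14 were the serotonin-gated channel Htr3a (4.58 ± 0.48), the mucosal chemokine Cxcl17 (4.15 ± 0.74), Arhgap36 (6.61 ± 0.87), Megf6 (5.30 ± 0.90) and the branched-chain aminotransferase Bcat1 (6.11 ± 0.69). These 5 genes averaged at most 0.925 CPM at 48 h and 10.4 to 20.8 CPM at d14. Arhgap36, Bcat1 and Megf6 rest on 6, 7 and 12 counts over the 48 h group, so the size of their folds is loosely set. Bcat1 averaged 3.92 CPM in uninjured cells, above its 48 h mean of 0.118, and its log2 fold change of d14 over uninjured cells was 1.41 ± 0.48. Arhgap36 and Cxcl17 had 0 and 1 counts over the uninjured libraries.

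The epidermal growth factor precursor Egf, made in the distal nephron, was at 24.3, 23.4 and 16.2 CPM at 48 h and 55.3, 694 and 345 CPM at d14 (4.10 ± 0.81, adjusted p = 0.007), the vitamin A receptor Stra6 at 0.842, 2.59 and 2.54 CPM at 48 h and 14, 50.5 and 22.2 CPM at d14 (3.90 ± 0.55, adjusted p = 0.000774), and the calcium buffer Pvalb at 0.337, 0 and 0.0461 CPM at 48 h and 0.634, 44.2 and 16.2 CPM at d14 (7.04 ± 1.65, adjusted p = 0.0139). In all 3 d14 replicate 1 was the lowest late library, and none of them passed under limma voom with sample weights. Pvalb also failed without 48 h replicate 3. Uninjured cells held 108.7, 114.4 and 80.5 CPM of Egf, above every 48 h library and above d14 replicate 1. Against uninjured cells, Egf passed neither at 48 h (-2.25 ± 0.76, adjusted p = 0.059) nor at d14 (1.85 ± 0.73, adjusted p = 0.0716) in edgeR's quasi-likelihood test.

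The largest falls were in genes of myeloid cells and of proximal tubule metabolism and defence. The chitinase-like Chil3 was at 15.2, 52.9 and 52.1 CPM at 48 h and 0.88, 0 and 0.136 CPM at d14 (-6.88 ± 0.90, adjusted p = 0.000837), S100a9, a subunit of calprotectin, at 20.5, 67.4 and 108 CPM at 48 h and 1.06, 0.792 and 0.381 CPM at d14 (-6.49 ± 0.76, adjusted p = 0.000546), and the neutrophil chemokine receptor Cxcr2 at 11.9, 12.5 and 29.7 CPM at 48 h and 0.176, 0.198 and 0.218 CPM at d14 (-6.48 ± 0.47). Lower as well were S100a8 (-6.50 ± 1.26), Slfn4 (-6.37 ± 0.79), haptoglobin (Hp, -4.76 ± 0.61), the gelatinase Mmp9 (-4.80 ± 0.32) and the G-CSF receptor Csf3r (-4.43 ± 0.55). S100a8 did not pass under limma voom. Cyp24a1, the enzyme that inactivates vitamin D (chromosome 2, 170482708 to 170497145), went from 404, 1012 and 341 CPM at 48 h to 43.2, 20.7 and 13.1 CPM at d14 (-4.51 ± 0.74), where uninjured cells averaged 47.7. Pck1, the gate enzyme of gluconeogenesis (chromosome 2, 173153048 to 173159273), went from 1185, 7501 and 2981 to 122, 196 and 215 CPM (-4.45 ± 0.64), below the uninjured mean of 1083.

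**Figure D1:**
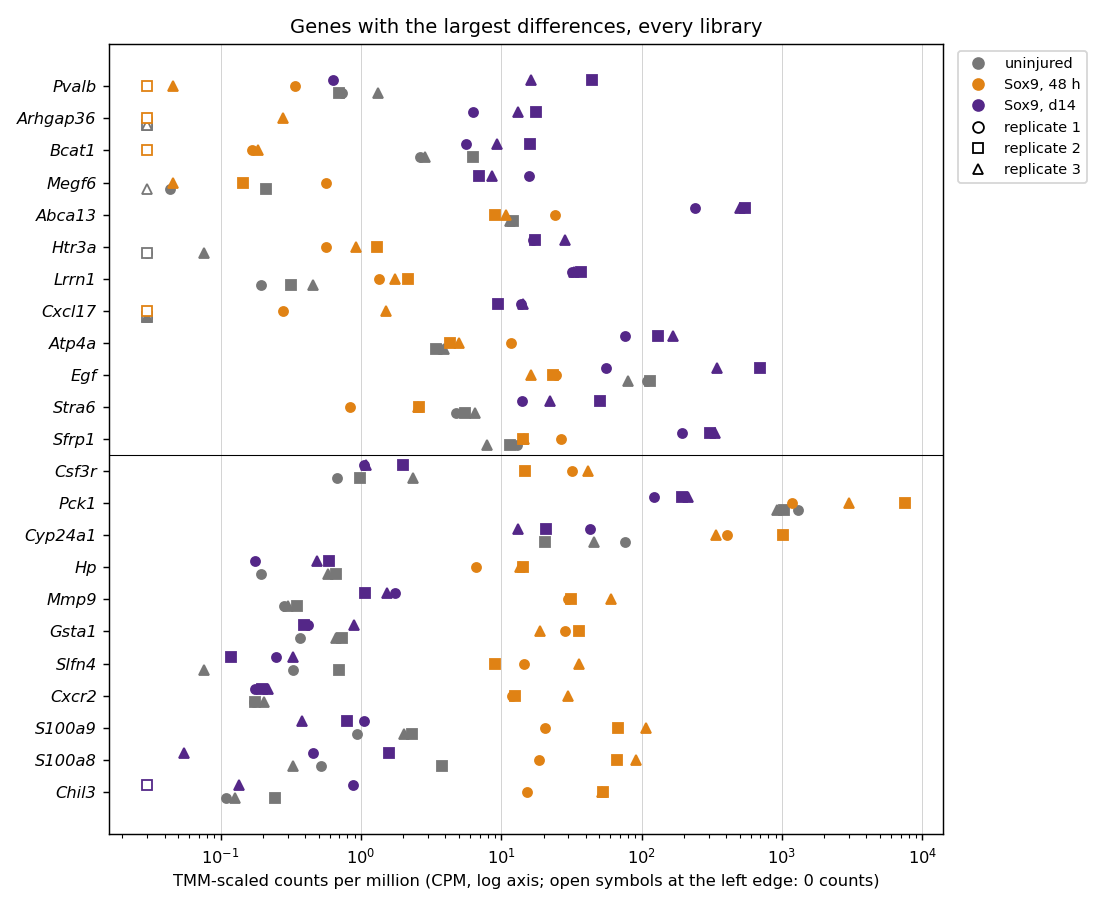
TMM-scaled CPM (log axis) of the 12 genes with the largest rise and 11 of the 12 with the largest fall, in every library, by group (colour) and replicate (symbol). For each gene the 3 d14 and 3 48 h libraries do not overlap, which the choice of genes required. Egf, Pvalb and Stra6 spread widely at d14.

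Sox9, the gene behind the label, was at 7.57, 15.1 and 22.1 CPM at 48 h and 38.8, 32.1 and 28.8 CPM at d14, against a mean of 0.274 in uninjured cells. All 3 late libraries lay above the early ones, but the difference (1.15 ± 0.48, adjusted p = 0.0996) did not pass the test. It passed without TMM scaling, under limma voom, in a fit of the 6 Sox9 libraries alone and without uninjured replicate 3. Of 34 tubular injury genes tested, 10 were higher at d14 and 3 lower, with a median log2 fold change of 0.14 against 0.05 over all genes. The 10 became 6 without d14 replicate 1, and the 3 became 5 without 48 h replicate 1 and 1 without 48 h replicate 3 or d14 replicate 3. Krt7, a keratin of ducts and transitional epithelia, went from 69.9, 74 and 79.2 to 357, 194 and 233 CPM (1.81 ± 0.20, adjusted p = 0.000118), and its partners Krt19 and Krt18 also rose (2.00 ± 0.42, adjusted p = 0.00557; 1.58 ± 0.33). Clusterin (Clu), an extracellular chaperone shed by injured tubules, went from 2091, 1287 and 2489 to 5199, 3383 and 4171 CPM (1.12 ± 0.24), and the surface marker Cd24a from 247, 221 and 283 to 703, 414 and 504 CPM (1.11 ± 0.18). The heme-degrading enzyme Hmox1 went the other way, from 37.9, 63.5 and 84.4 to 21.9, 17.7 and 15.8 CPM (-1.75 ± 0.25). Of 24 keratin and squamous-type genes 14 had enough counts to test. Of these 14, 4 were higher and none lower (2 at an unadjusted p below 0.05, 3 by limma voom).

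The best-known urinary injury markers did not pass the test. Havcr1, which encodes KIM-1, was at 95.6, 132 and 515 CPM at 48 h and 121, 155 and 122 CPM at d14 (-0.90 ± 0.69, adjusted p = 0.359). The lipocalin Lcn2 was at 72.1, 402 and 249.9 CPM at 48 h and 716, 229.6 and 399.5 CPM at d14 (0.90 ± 0.62, adjusted p = 0.308) and the osteopontin gene Spp1 at 8268, 12251 and 20446 CPM at 48 h and 8756, 7142 and 9296 CPM at d14 (-0.70 ± 0.33, adjusted p = 0.13). In each the groups overlapped, and all 6 libraries stood far above the uninjured means of 0.362, 0.21 and 327 CPM. Krt20 (5.61, 20.3 and 14 against 3.38, 7.32 and 4.93 CPM, adjusted p = 0.144) and Krt8 (141, 214 and 171 against 330.2, 206 and 228 CPM, adjusted p = 0.0539) also overlapped and did not pass. Spp1 passed under DESeq2 and without 48 h replicate 1, and Krt20 under limma voom. Krt8 passed under DESeq2, with the length trend removed, without TMM and without 48 h replicate 2 or d14 replicate 2.

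Markers of the loop of Henle and of the distal convoluted and connecting tubule were mostly higher in the late cells. In bulk RNA of sorted cells, more cells of a segment and more RNA per cell cannot be told apart. The part of loop, distal and collecting duct cells in the lists given further below was not tested. All 11 distal convoluted and connecting tubule markers tested were higher at d14, with a median log2 fold change of 2.54. Their summed level was 1278, 1322 and 1099 CPM at 48 h and 4753, 6554 and 6886 CPM at d14, and 1362 CPM on average in uninjured cells. The membrane protein Tmem52b went from 83.4, 70.1 and 57.9 to 558, 763 and 930.0 CPM (3.41 ± 0.24, adjusted p = 1.27e-05), the calcium buffer Calb1 from 14.5, 21.6 and 20.1 to 123, 124 and 115 CPM (2.70 ± 0.15, adjusted p = 7.09e-06), and the sodium-calcium exchanger Slc8a1 from 31.1, 16 and 29.3 to 219.7, 152 and 166 CPM (2.80 ± 0.27). The thiazide-sensitive cotransporter Slc12a3, named after its values were seen because it defines the segment, went from 182, 349 and 247 to 1751, 3336 and 3224 CPM (3.42 ± 0.39). The loop of Henle list had 10 of 13 members higher and 1 lower, with a median of 2.27 and sums of 1260.2, 1042 and 1144 CPM at 48 h and 3617, 6206 and 6509 CPM at d14. Uromodulin (Umod), the main protein of normal urine, went from 747, 624 and 752 to 2309, 3697 and 4267 CPM (2.27 ± 0.24). The potassium channel Kcnj1 rose from 63.2, 72.3 and 63.6 to 335, 441 and 492 CPM (2.67 ± 0.15, adjusted p = 7.09e-06). In both lists d14 replicate 1 was the lowest late library and still above every early one.

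Collecting duct lists had lower medians, and fewer of their members were called. Principal cells had 7 of 13 markers higher and none lower (1 at an unadjusted p below 0.05, median 1.35), and the sums were 714, 1172 and 826 CPM against 1727, 1306 and 1733 CPM. The sodium channel subunits Scnn1a (59.7, 78 and 52.5 against 273, 243 and 294 CPM, 2.10 ± 0.15, adjusted p = 1.30e-05) and Scnn1b (1.61 ± 0.19, adjusted p = 0.000164) and the transcription factor Gata3 (2.05 ± 0.29) rose. The water channel Aqp2, named after its values were seen as the defining gene of these cells, was at 107, 99.6 and 115 CPM at 48 h and 88.1, 77.4 and 116 CPM at d14 and overlapped (-0.20 ± 0.17, adjusted p = 0.41). Intercalated cells had 6 of 13 markers higher and none lower (median 1.42), among them the ammonia channel Rhcg (35.2, 34.3 and 33.6 against 107, 115 and 138 CPM, 1.81 ± 0.14) and the proton pump subunit Atp6v1b1 (1.87 ± 0.16). Of 6 thin limb markers only Cldn4 was called (1.16 ± 0.24).

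**Figure D2:**
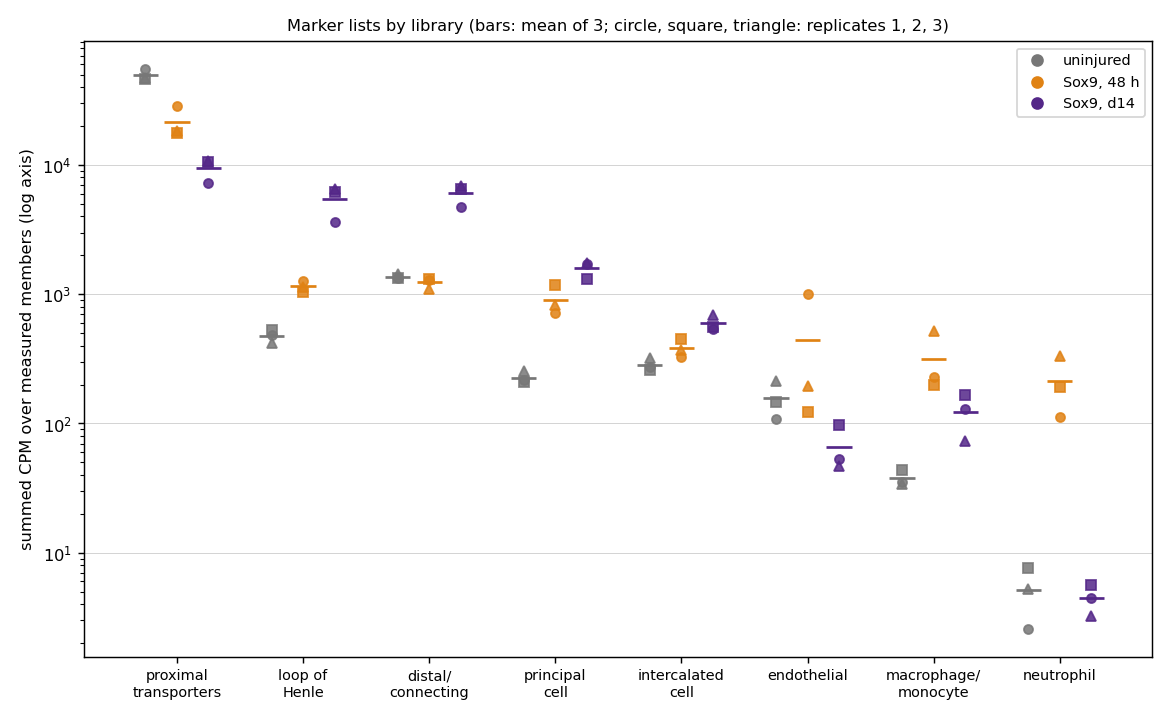
Summed CPM (log axis) of the measured members of 8 marker lists in every library, with group means as bars. Loop, distal and collecting duct sums sit higher at d14 than at 48 h, and proximal transporter, endothelial and neutrophil sums sit lower.

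Many proximal tubule genes were lower at d14. Of 40 transporter and endocytosis genes, none was higher (1 at an unadjusted p below 0.05) and 26 were lower at d14 (median -0.97). The summed level was 28712, 17660 and 18200 CPM at 48 h and 7239, 10445 and 10712 CPM at d14, against a mean of 49506 in uninjured cells. The dicarboxylate transporter Slc13a3 went from 735, 807 and 1042 to 133, 113 and 141 CPM (-2.74 ± 0.16, adjusted p = 7.09e-06) and the urate and phosphate transporter Slc17a1 from 338, 282 and 264 to 95.3, 95.8 and 97 CPM (-1.62 ± 0.14, adjusted p = 3.36e-05). Slc34a1, the phosphate cotransporter that marks the uninjured cells, was at 4404, 1147 and 1895 CPM at 48 h and 994, 1620.5 and 1653 CPM at d14, overlapped and did not pass (-0.80 ± 0.42, adjusted p = 0.17), though it did without 48 h replicate 2. Megalin (Lrp2), the main endocytic receptor, was at 2052, 1054 and 1679.6 CPM at 48 h and 799, 969.8 and 949 CPM at d14 (-0.82 ± 0.23, adjusted p = 0.0212). Its call was lost without 48 h replicate 1 or 3, without any 1 d14 library and without TMM.

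Of 15 transcription factors and scaffolds of proximal identity, 10 were lower and 2 higher. The nuclear receptor Hnf4a, which drives much of this program, went from 727, 618 and 577 to 270.2, 253 and 262 CPM (-1.29 ± 0.12, adjusted p = 5.31e-05) and the apical scaffold Pdzk1 from 1224, 842 and 927 to 202, 278 and 263 CPM (-2.01 ± 0.17). The homeobox gene Emx1 rose from 21.3, 11.9 and 14.5 to 56.1, 78.4 and 113 CPM (2.36 ± 0.28). Among 30 brush-border and detoxification genes, 16 were lower and 3 higher, and the 16 became 8 without d14 replicate 1 and 10 without d14 replicate 2. Aminopeptidase N (Anpep) fell (-1.71 ± 0.17), as did the glycine conjugase Glyat (-1.52 ± 0.14) and Gstp1 (-1.80 ± 0.16), a gene with close copies. The brush-border peptidase neprilysin (Mme) rose from 33.8, 28.2 and 42.9 to 97.1, 106 and 105 CPM (1.55 ± 0.19).

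Most genes of fatty acid oxidation were lower in the late cells. Of 32 fatty acid oxidation genes, none was higher and 23 were lower (median -1.28). The medium-chain acyl-CoA synthetase Acsm1 went from 117, 188 and 139 to 12.5, 18.6 and 15.5 CPM (-3.25 ± 0.21, adjusted p = 9.51e-06), the electron transfer subunit Etfb from 313, 379.7 and 257 to 87.4, 112 and 122 CPM (-1.56 ± 0.18, adjusted p = 0.000121), and the dehydrogenase Acadvl from 228, 486 and 289 to 106, 114 and 142 CPM (-1.47 ± 0.24). The 23 became 15 without d14 replicate 1, without d14 replicate 2 and without TMM. The list's summed level was 7718, 12538 and 5519.5 CPM at 48 h, highest in replicate 2, and 3019, 4069 and 4296 CPM at d14. All 13 mitochondrially encoded protein genes were lower (median -1.44), and the median stayed negative without TMM. The oxidase subunit mt-Co2 went from 36323, 33897 and 24253 to 7569.7, 7839 and 14526 CPM (-1.66 ± 0.28) and mt-Nd3 from 4026, 3377 and 2482 to 694, 582 and 1143 CPM (-2.03 ± 0.26). In these the d14 libraries also fell below the uninjured means of 13673 and 2235 CPM, except d14 replicate 3 for mt-Co2.

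Falls in nuclear genes of respiration were smaller. Of 20 citric acid cycle genes 14 were lower and 1 higher (median -0.42), and of 42 nuclear-encoded respiratory chain subunits 20 were lower and none higher (median -0.36). Both medians are within the scaling shift: without TMM they were 0.15 and 0.20, with 5 and 11 members higher and 3 and 2 lower. Leaving out d14 replicate 1 left 7 and 13 lower, and leaving out d14 replicate 2 left 9 of the citric acid cycle lower. Pyruvate carboxylase (Pcx) went from 308, 483 and 279.6 to 118, 159 and 151 CPM (-1.32 ± 0.20, adjusted p = 0.000726), cytochrome c (Cycs) from 519, 398 and 276 to 168, 189.9 and 183 CPM (-1.14 ± 0.20, adjusted p = 0.00172), and the ketoglutarate dehydrogenase subunit Dlst from 344, 359 and 296 to 158, 172 and 187 CPM (-0.95 ± 0.12).

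Glycolysis was split. Of 22 genes 8 were higher and 8 lower. Hexokinase 1 (Hk1), which commits glucose to the pathway, went from 79.1, 83.4 and 76.1 to 247, 228 and 277 CPM (1.66 ± 0.12, adjusted p = 1.30e-05), and pyruvate kinase (Pkm), which completes it, from 134, 150.5 and 201 to 447, 461 and 563 CPM (1.60 ± 0.17, adjusted p = 8.03e-05). Lactate dehydrogenase A (Ldha) fell from 618, 664 and 659 to 271, 281 and 277 CPM (-1.23 ± 0.11) and the mutase Pgam1 from 342, 426 and 369 to 172, 169.7 and 172 CPM (-1.15 ± 0.12). The uninjured means were 7.48 for Hk1, 16.8 for Pkm and 582 CPM for Ldha, so at d14 Hk1 and Pkm stood far above uninjured cells and Ldha below them. Hypoxia targets were likewise divided, with 5 of 18 higher and 6 lower: the kinase Pdk1, which inhibits pyruvate dehydrogenase, rose (0.90 ± 0.19) and the collagen hydroxylase P4ha1 fell (-0.98 ± 0.13).

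Most genes of oxidative stress defence fell. Of 20 genes of the NRF2 response and iron handling, none was higher and 15 were lower (median -1.22), and no replicate left out changed that count by more than 1.5 times. Ferritin heavy chain (Fth1, chromosome 19, 9980598 to 9985098), which stores iron, was at 8711, 13630.5 and 8843 CPM at 48 h and 1496, 1679 and 1630.4 CPM at d14 (-2.70 ± 0.21, adjusted p = 1.81e-05), against a mean of 4247 in uninjured cells. The glutathione transferases Gsta1 (28.4, 35.8 and 19 against 0.422, 0.396 and 0.898 CPM, -5.54 ± 0.41, adjusted p = 1.43e-05) and Gstm1 (429.8, 415 and 312 against 118, 107 and 98.2 CPM, -1.84 ± 0.16) fell as well. Both belong to families of near-identical copies, among which expected counts divide shared reads, so single members are uncertain. The oxidative stress growth inhibitor Osgin1 fell from 40.2, 47.1 and 32.6 to 11.7, 7.52 and 9.8 CPM (-2.04 ± 0.18).

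Many genes of the protein folding response of the endoplasmic reticulum were lower at d14. Here chaperones are induced through an element in their promoters, the ER stress response element, whose full form reads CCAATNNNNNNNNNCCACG. Among 24 genes of the list 14 were lower and 1 higher (median -0.46). Without TMM 4 were lower and 7 higher with a median of 0.11, and without d14 replicate 2 there were 9 lower. Promoters of 21 members were in the RefSeq table (GRCm38.p6, 250 bases before to 50 after the start), and 7 held the full element on either strand, against 0.137% of the 27025 genes in the table. The stretches below carry the element in capitals with 15 bases on each side, as read along the gene's strand. Shown are those of Hspa5 and Creld2, which lead the list, and of the chaperones Calr and Hsp90b1. In Creld2 and Calr the element lies on the opposite strand, and Hsp90b1 held a second copy that is not printed.
Hspa5 (chr2:34772010-34772058, + strand): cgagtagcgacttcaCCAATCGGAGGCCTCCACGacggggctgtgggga
Creld2 (chr15:88819505-88819553, + strand): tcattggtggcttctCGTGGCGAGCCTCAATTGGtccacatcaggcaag
Calr (chr8:84847060-84847108, - strand): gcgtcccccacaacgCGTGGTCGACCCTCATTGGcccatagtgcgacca
Hsp90b1 (chr10:86705623-86705671, - strand): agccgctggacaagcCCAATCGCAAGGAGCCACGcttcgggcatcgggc

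Hspa5, the master chaperone BiP, was at 661, 553 and 585 CPM at 48 h and 253, 242 and 287 CPM at d14, next to 285 in uninjured cells (-1.20 ± 0.12, adjusted p = 6.71e-05). Creld2 went from 50.4, 49.6 and 41.9 to 18.7, 15 and 20.8 CPM (-1.37 ± 0.15, adjusted p = 0.000106), and Manf, a secreted ER stress protein whose window held no full element, from 82.2, 80.5 and 77.3 to 33.5, 29.7 and 32.5 CPM (-1.33 ± 0.10). The other genes with the element were named after their values were seen. Calr (-0.75 ± 0.17), Hsp90b1 (-0.68 ± 0.16), Dnajc3 (-0.82 ± 0.15) and Pdia6 (-0.48 ± 0.15, adjusted p = 0.0321) were lower, and Canx was not called (-0.10 ± 0.13, adjusted p = 0.568). Without TMM Calr, Hsp90b1 and Dnajc3 were no longer called and Pdia6 and Canx were above 0. In all, 6 of 7 members with the element and 6 of 14 without it were lower, which is a description of these windows only. A count of the same kind was made for another motif, TGACNNNGC, in the NRF2 and iron handling list. There 5 of 6 members with the motif and 8 of 10 without it were lower, so that motif did not set the lower genes apart. Heat shock chaperones of mitochondria fell too, with Hspd1 at 499.7, 433 and 449.6 against 172, 185 and 201 CPM (-1.31 ± 0.13) and its partner Hspe1 at 152, 97.3 and 125 against 56.2, 52.7 and 52.2 CPM (-1.22 ± 0.16). Of the 17 in that list 6 were lower and 1 higher, the higher being the small chaperone Hspb8 (2.33 ± 0.40); without TMM the list had 6 higher and 2 lower. In the amino acid stress list, with 4 of 19 higher and 4 lower, the serine-synthesis enzyme Psat1 went from 81.9, 232 and 74.2 to 18.7, 11.4 and 12.5 CPM (-3.18 ± 0.49) and the mTOR inhibitor Ddit4 from 11.3, 9.05 and 14.4 to 48.9, 34.3 and 34.2 CPM (1.74 ± 0.21).

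Genes of the translation and protein degradation machinery often showed small falls that depend on scaling. Of 53 cytosolic ribosomal protein genes, none was higher and 45 were lower, by a median of -0.48, but the median was 0.10 with 0 lower without TMM. The 45 became 26 without d14 replicate 2. Rpsa was at 756, 659 and 680.3 CPM at 48 h and 436, 351 and 393 CPM at d14 (-0.83 ± 0.12, adjusted p = 0.000579). Of 25 proteasome subunits 14 were lower and none higher (median -0.36), with 8 lower without d14 replicate 2 and, without TMM, 0 lower and 6 higher with a median of 0.21. Psma4 went from 121, 154 and 123 to 77.2, 67.8 and 78.3 CPM (-0.83 ± 0.13, adjusted p = 0.000742).

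Transcript length moved with the comparison. Exonic length in GENCODE M21 was found for 15512 of the 15519 genes. Among the 10% of genes with the shortest exons (median 968 bases) 4.06% were higher at d14 and 19.7% lower, and among the 10% with the longest (median 12009 bases) 35.3% were higher and 8.7% lower. The shortest 20% of genes held 21.1 to 21.7% of the non-mitochondrial CPM at 48 h and 15.3 to 17.5% at d14. Across genes the rank correlation of length and log2 fold change was 0.184. With each library's trend on length removed, an alternative chosen after the data were seen, 2051 genes were higher and 2643 lower. Ribosomal protein genes, with a median length of 2015 bases, then had 20 members lower in place of 45. The fatty acid oxidation count stayed at 23, the NRF2 count at 15 and the loop of Henle count at 10, and the distal count was 10. The part of length in each result was not tested further.

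**Figure D3:**
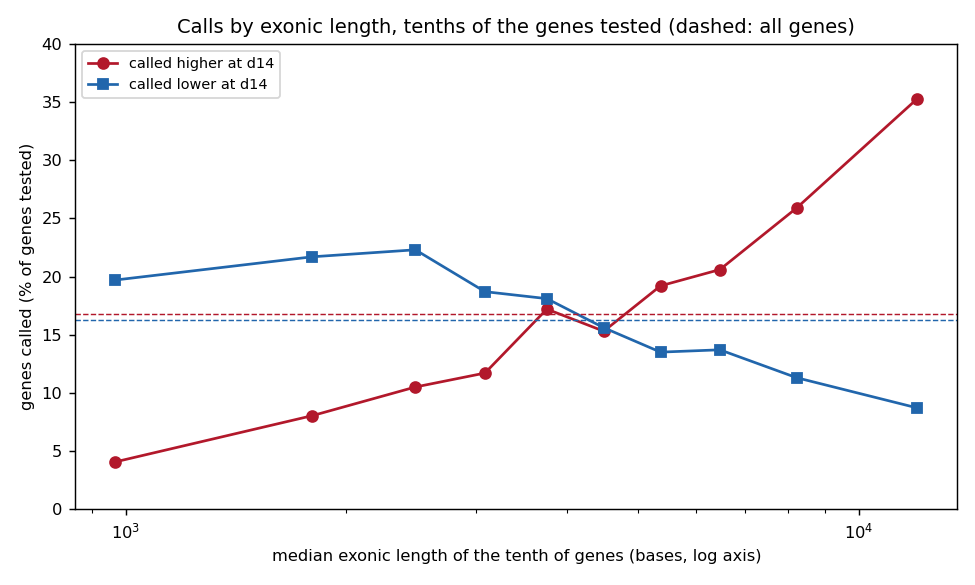
Percent of genes called higher or lower at d14 in 10 equal bins of the genes tested, ordered by exonic length (log axis, median of each bin), with dashed lines at 16.8% and 16.3% for all genes. The share called higher climbs from 4.06% to 35.3% with length.

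Of 30 S phase genes none was higher at d14, 10 were lower and 20 did not pass (median -0.93). Thymidine kinase (Tk1) went from 30.6, 9.49 and 28.1 to 5.6, 6.41 and 3.35 CPM (-2.17 ± 0.40, adjusted p = 0.00251) and the replication licensing factor Cdc45 from 4.26, 5.46 and 9.86 to 0.951, 1.35 and 1.36 CPM (-2.42 ± 0.47). Without 48 h replicate 2, in which the list summed to 272 CPM against 537 and 686 in the others, 18 were lower. Without TMM 3 were lower. Of 30 mitosis genes 3 were lower and none higher, with 10 lower without 48 h replicate 2, none without 48 h replicate 1 or d14 replicate 3, and 1 without d14 replicate 1, d14 replicate 2 or uninjured replicate 1. Mki67, a nuclear protein of dividing cells, stood at 98.1, 2.3 and 25.9 CPM at 48 h and 34, 28.3 and 14.9 CPM at d14, overlapped and did not pass (-0.74 ± 0.94, adjusted p = 0.587). The cell cycle inhibitor Cdkn1b rose from 24.9, 31.2 and 24.3 to 40.1, 44 and 44.3 CPM (0.68 ± 0.13). The p53 target Bbc3, which promotes cell death, rose from 1.4, 2.44 and 2.03 to 6.09, 7.32 and 6.37 CPM (1.77 ± 0.40). Their list had 4 of 26 higher and 4 lower, both under the shares of all genes (16.8% and 16.3%). Either count became 2 without d14 replicate 3, the higher one also without d14 replicate 1, and the lower one also without 48 h replicate 1 or d14 replicate 2.

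Of 29 genes tied to failed proximal tubule repair, 14 were higher at d14, 1 was lower and 14 did not pass (median 1.12), and the sum went from 1078, 1014 and 1470.3 to 2186, 2336 and 2126 CPM. The doublecortin-family gene Dcdc2a was at 26.7, 13.1 and 34.2 CPM at 48 h and 260.1, 239.7 and 276 CPM at d14 (3.36 ± 0.38, adjusted p = 0.000264). The matrix protein Ltbp2 went from 0.449, 0.287 and 0.461 to 11.3, 8.71 and 9.44 CPM (4.54 ± 0.54, adjusted p = 0.000162), the progenitor marker Prom1 from 82.5, 81.8 and 81.5 to 227, 167 and 223 CPM (1.33 ± 0.18) and the vesicle tether Sytl2 from 32.5, 38.7 and 33.6 to 125, 125 and 136 CPM (1.89 ± 0.21). Vcam1, the adhesion molecule most used to mark such cells, was at 7.63, 0.719 and 36.3 CPM at 48 h and 52.4, 184 and 121 CPM at d14. The groups did not overlap, and the difference fell just short of the threshold (2.91 ± 0.95, adjusted p = 0.0513). It passed under DESeq2, under a stricter filter, without TMM and without 48 h replicate 3. Cdh6 (3.31, 13.1 and 27.4 against 37.2, 46 and 33.9 CPM, adjusted p = 0.129) and the monocyte chemokine Ccl2 (1.51, 1.29 and 2.95 against 3.94, 6.21 and 4.11 CPM, adjusted p = 0.0842) did not pass either, and in both the groups did not overlap. Without 48 h replicate 3 both passed, and Ccl2 also under DESeq2, with the length trend removed and without TMM.

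Some genes of inflammatory signalling were higher in late cells. Of 31 chemokine, cytokine and NF-kB feedback genes 10 were higher and 1 lower (median 0.67). Tnfaip2, induced by tumour necrosis factor, went from 28.2, 10.1 and 26.6 to 96.6, 86.1 and 84.3 CPM (2.01 ± 0.30, adjusted p = 0.00096), the feedback inhibitor Tnfaip3 from 4.38, 3.88 and 5.72 to 10.8, 15.3 and 12.9 CPM (1.46 ± 0.25, adjusted p = 0.00138) and the survival gene Birc3 from 9.87, 4.74 and 16.6 to 30.8, 36.4 and 29.7 CPM (1.59 ± 0.32). The class I antigen gene H2-K1, a member of a multigene family, went from 159, 156 and 199 to 212, 368 and 342 CPM (0.84 ± 0.19), in a list with 4 of 14 higher and none lower, or 2 without 48 h replicate 1, d14 replicate 2 or d14 replicate 3. The class II chaperone Cd74 was at 29.1, 7.47 and 55.9 CPM at 48 h and 91.4, 287 and 192 CPM at d14 (2.59 ± 0.70, adjusted p = 0.0247). It was called with 1 other of 7 class II genes (4 in all without 48 h replicate 3), and its call was lost without 48 h replicate 1, d14 replicate 2 or d14 replicate 3, with no filter and with the replicate number as a block. Of 32 interferon genes 3 were higher, a smaller share than over all genes, and none lower (3 at an unadjusted p below 0.05, 2 by DESeq2, 1 by limma voom). Without 48 h replicate 3 there were 6 higher, without 48 h replicate 2 there were 4 lower, and without any 1 d14 library there was 1 higher. Complement had 3 of 15 higher (6 without 48 h replicate 3) and 2 lower, near the shares of all genes, 16.8% and 16.3%. Among the higher was C4b (1.33 ± 0.33, adjusted p = 0.0124). The 2 lower were C5ar1 (-3.81 ± 0.72), too low for the stricter filter, and Cfb (-0.81 ± 0.19), not called without TMM.

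Leukocyte and endothelial transcripts were in the sorted cells as well. Of 9 neutrophil markers the 5 that could be tested were all lower at d14 (median -6.48), and their sum was 113, 193 and 330.3 CPM at 48 h, 4.51, 5.62 and 3.27 CPM at d14 and 5.13 CPM on average in uninjured cells. The other 4 were too low to test. A marker could enter the test through the 48 h group alone, as Cxcr2 did, with 944 counts there, 18 over d14 and 21 over the uninjured libraries. The count and median of the neutrophil list therefore describe only the members admitted. Of 18 macrophage and monocyte markers 6 were lower, none was higher and 12 did not pass (median -0.99). Of the 18, 6 had a log2 fold change above 0. The sums were 229, 199 and 516 CPM against 129, 165 and 73.7 CPM. The integrin Itgam went from 23.7, 29.8 and 56.7 to 4.19, 4.16 and 2.1 CPM (-3.41 ± 0.37, adjusted p = 0.000118) and the adaptor Tyrobp from 11.2, 12.9 and 24.2 to 2.25, 1.03 and 2.67 CPM (-3.02 ± 0.42, adjusted p = 0.000434). Of 14 endothelial markers 11 were lower, with sums of 1004, 122 and 196 CPM, highest in 48 h replicate 1, against 53.3, 96.5 and 47 CPM, and the uninjured libraries averaged 157 CPM, between 48 h replicates 2 and 3. The count of endothelial markers called lower was 1 with the replicate number as a block or without d14 replicate 3, 2 with no filter or without d14 replicate 1, 5 without d14 replicate 2 and 6 without 48 h replicate 1 or uninjured replicate 1 or 3. Of 11 fibroblast and mural markers 3 were higher (1 without d14 replicate 2) and none lower (1 at an unadjusted p below 0.05 and 1 by DESeq2), with sums of 34.4, 47.9 and 64.3 against 52, 82.7 and 64.3 CPM. Markers of dendritic, T, NK, B and urothelial cells gave no call and summed to at most 13.2 CPM in a Sox9 library; of the T and NK markers 2 were higher at an unadjusted p below 0.05 and by DESeq2. The chemokine, MHC and protease lists contain genes of these cells, and the part of such cells in those lists was not tested.

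Nephron patterning genes were called higher more often than all genes. Of 27 tested, 13 were higher and 3 lower (median 0.82). The POU factor Pou3f3, of the loop and distal nephron, went from 34.8, 34.2 and 31.6 to 141, 138 and 172 CPM (2.17 ± 0.20, adjusted p = 3.95e-05), Sox4 from 30.8, 40.1 and 48.8 to 140.0, 122 and 108 CPM (1.62 ± 0.22, adjusted p = 0.000421) and Pax2, needed to form nephrons, from 23.8, 28 and 26.1 to 59.9, 52.9 and 56.2 CPM (1.12 ± 0.12). Wnt ligands, which induce tubule formation and can drive fibrosis, had a high list median. The list, which includes genes for their release, had 14 members, of which 9 had enough counts to test. Of these 9, 5 were higher and none lower (median 2.11), or 2 higher without d14 replicate 1. A gene could enter the test through 1 group alone, so the count and median describe only the members admitted. Wnt9b was at 3.2, 3.45 and 7.19 CPM at 48 h and 34.9, 16.9 and 29.3 CPM at d14 (2.51 ± 0.35), Wnt4 at 2.24, 2.73 and 1.06 CPM at 48 h and 13.8, 9.58 and 11 CPM at d14 (2.56 ± 0.49) and Wnt7a at 0, 0 and 0.184 CPM at 48 h and 3.8, 1.43 and 2.01 CPM at d14 (4.87 ± 1.18, adjusted p = 0.0127). Wnt7a rests on 4 counts at 48 h and lost its call without d14 replicate 1.

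On the receiving side, 4 of 16 genes that answer canonical Wnt signals were higher and 2 lower. The receptor-removing ligases Rnf43 (1.62 ± 0.30, adjusted p = 0.00223) and Znrf3 (0.97 ± 0.20, adjusted p = 0.00392), both feedback inhibitors, rose beside Sfrp1, while the target transcription factor Sp5 fell from 18.1, 18.3 and 10.7 to 2.11, 5.26 and 6.12 CPM (-1.79 ± 0.35). In the Notch pathway 7 of 17 genes were higher (4 without d14 replicate 1) and 3 lower (5 without 48 h replicate 2). The ligand Jag1 went from 13.7, 9.77 and 12.2 to 46.5, 43.7 and 39.8 CPM (1.85 ± 0.25), the effector Heyl from 0.449, 0.719 and 0.738 to 9.68, 10.2 and 7.43 CPM (3.85 ± 0.70) and the coactivator Maml2 from 6.4, 3.74 and 4.43 to 19.5, 16.9 and 18 CPM (1.88 ± 0.24). Of 21 YAP targets 8 were higher and 1 lower (5 higher with the length trend removed). Yap1 itself rose (0.92 ± 0.13), as did the phosphatase Ptpn14, which restrains it (2.02 ± 0.19).

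Of 24 genes of EGF, FGF, PDGF and hedgehog signals 11 were higher and 2 lower, among them the receptors Erbb4 (11.3, 7.47 and 11 against 58.1, 50.9 and 64.2 CPM, 2.52 ± 0.37, adjusted p = 0.000894), Erbb2 (1.25 ± 0.20, adjusted p = 0.000907) and Fgfr2 (9.42, 5.17 and 10.5 against 51.9, 43.3 and 41.1 CPM, 2.40 ± 0.30). In the TGF-beta and BMP list 10 of 26 were higher and 4 lower (1 without d14 replicate 1, 2 without 48 h replicate 2 or d14 replicate 2). Ltbp3, which holds latent TGF-beta in the matrix, went from 14.3, 14.2 and 20.8 to 122, 95.8 and 128 CPM (2.79 ± 0.19), the ligand Tgfb2 from 2.69, 0.719 and 1.84 to 10.8, 13.5 and 7.43 CPM (2.52 ± 0.52) and the receptor Tgfbr1 from 47, 65.4 and 65.7 to 118, 93.5 and 107 CPM (0.84 ± 0.16). Id1, a direct target of BMP signalling, fell from 16.8, 61.4 and 58.4 to 11.1, 6.93 and 5.42 CPM (-2.54 ± 0.46).

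Of 26 basement membrane and epithelial integrin genes 15 were higher and 1 lower (median 0.73, median length 7719 bases). The laminin chain Lamb1 went from 149, 143 and 165 to 474, 443 and 539 CPM (1.67 ± 0.13, adjusted p = 1.49e-05), Lama5 from 126, 162 and 123 to 341, 287 and 311 CPM (1.20 ± 0.13, adjusted p = 9.44e-05) and the integrin Itgav, which activates latent TGF-beta, from 149.9, 152 and 184 to 370.1, 321 and 335 CPM (1.08 ± 0.12). Of 17 cadherins 8 were higher and 2 lower. E-cadherin (Cdh1), an epithelial adhesion protein, went from 206, 191 and 212 to 584, 501 and 649 CPM (1.51 ± 0.15), where uninjured proximal cells averaged 88. The desmosomal Dsg2 went from 10.4, 4.74 and 8.11 to 63.1, 59.2 and 66.2 CPM (2.97 ± 0.27) and the planar polarity cadherin Celsr1 from 37.9, 37.2 and 41.6 to 100.5, 105 and 141 CPM (1.57 ± 0.16). Cilium and cystic disease genes had 12 of 25 higher and 1 lower (7 higher without d14 replicate 3 or with the length trend removed), such as Pkhd1 (1.14 ± 0.16) and the motile cilium regulator Foxj1, at 0.898, 0.144 and 1.48 CPM at 48 h and 8.13, 6.06 and 7.84 CPM at d14 (3.00 ± 0.67).

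Matrix genes were called in both directions. Of 23 collagen and fibrillar matrix genes 7 were higher and 2 lower, and the 7 became 3 without d14 replicate 1 and 4 without d14 replicate 2. The 2 became 4 without 48 h replicate 2. Thrombospondin 1 (Thbs1) went from 41.4, 43.3 and 43.1 to 159, 109 and 104 CPM (1.54 ± 0.17, adjusted p = 0.000112) and the fibrillar collagen Col5a2 from 10.8, 6.04 and 7.88 to 45.2, 61.8 and 74.1 CPM (2.84 ± 0.28, adjusted p = 7.39e-05), while Col8a1 fell from 8.81, 39.4 and 6.68 to 1.23, 2.61 and 1.25 CPM (-3.40 ± 0.69). Col1a1, the main collagen of scars and of fibroblasts, was at 0.281, 0 and 0.323 CPM at 48 h and 3.13, 4.2 and 1.9 CPM at d14 (3.70 ± 1.09, adjusted p = 0.0229) and lost its call without d14 replicate 1 or 2. The membrane protease Mmp14 rose from 10.04, 8.05 and 9.91 to 48.3, 39.7 and 54.7 CPM (2.34 ± 0.25) and the inhibitor Timp3 fell from 1475, 1254 and 1196 to 455, 587 and 628 CPM (-1.23 ± 0.16), in a protease list with 7 of 21 higher (4 without d14 replicate 1) and 4 lower. Of its lower members Mmp9, given above, is itself in the neutrophil marker list. Mmp8 (-5.46 ± 1.11), named after its values were seen, is also a protease of neutrophils. The part of neutrophils in these falls was not tested.

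**Figure D4:**
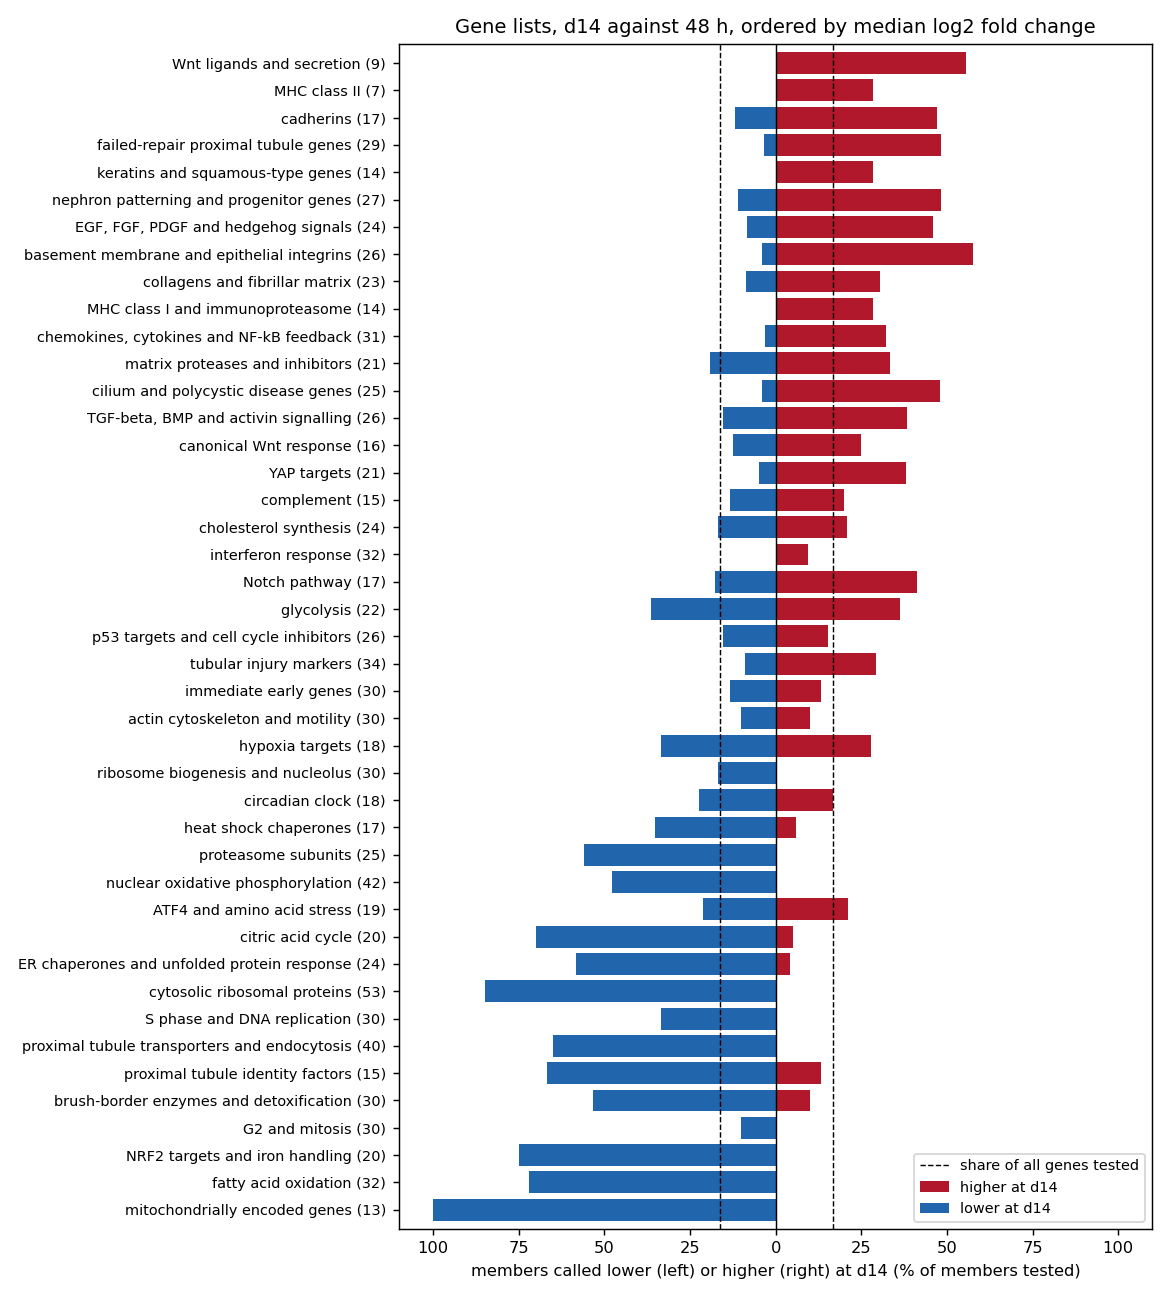
Percent of tested members called higher (right) or lower (left) at d14 in 43 process lists, ordered by median log2 fold change, with dashed lines at the shares of all genes, 16.8% and 16.3%. Fatty acid oxidation, NRF2 and mitochondrially encoded genes lie at the low end, and Wnt ligands, cadherins and failed-repair genes at the high end.

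Other lists were called at shares near or below those of all genes. Of 30 immediate early genes 4 were higher and 4 lower, both under the shares of all genes, and Fos was at 5.55, 8.62 and 10.2 CPM at 48 h and 10.7, 4.83 and 14.7 CPM at d14 (0.31 ± 0.39, adjusted p = 0.576). The 4 higher became 0 to 2 without any 1 library other than 48 h replicate 3, and the 4 lower became 1 or 2 without any 1 d14 library. Actin and motility genes had 3 of 30 higher, among them filamin A (Flna, 1.08 ± 0.23, adjusted p = 0.00507), and 3 lower. Ribosome assembly factors had 5 of 30 lower and none higher (2 at an unadjusted p below 0.05), with a median of -0.01, and without TMM 0 lower and 13 higher. Cholesterol synthesis had 5 of 24 higher (8 without 48 h replicate 1), including the regulator Srebf2 (0.71 ± 0.13, adjusted p = 0.00232), and 4 lower, including Mvd (-1.38 ± 0.21). In the circadian clock 3 of 18 were higher and 4 lower, with Per2 at 15.1, 23.6 and 24 against 7.6, 4.55 and 5.74 CPM (-1.80 ± 0.25) and the output gene Hlf at 79.8, 73.9 and 51.6 against 19, 13.5 and 16.6 CPM (-2.06 ± 0.18). The labels do not state the hour of collection.

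**Figure D5:**
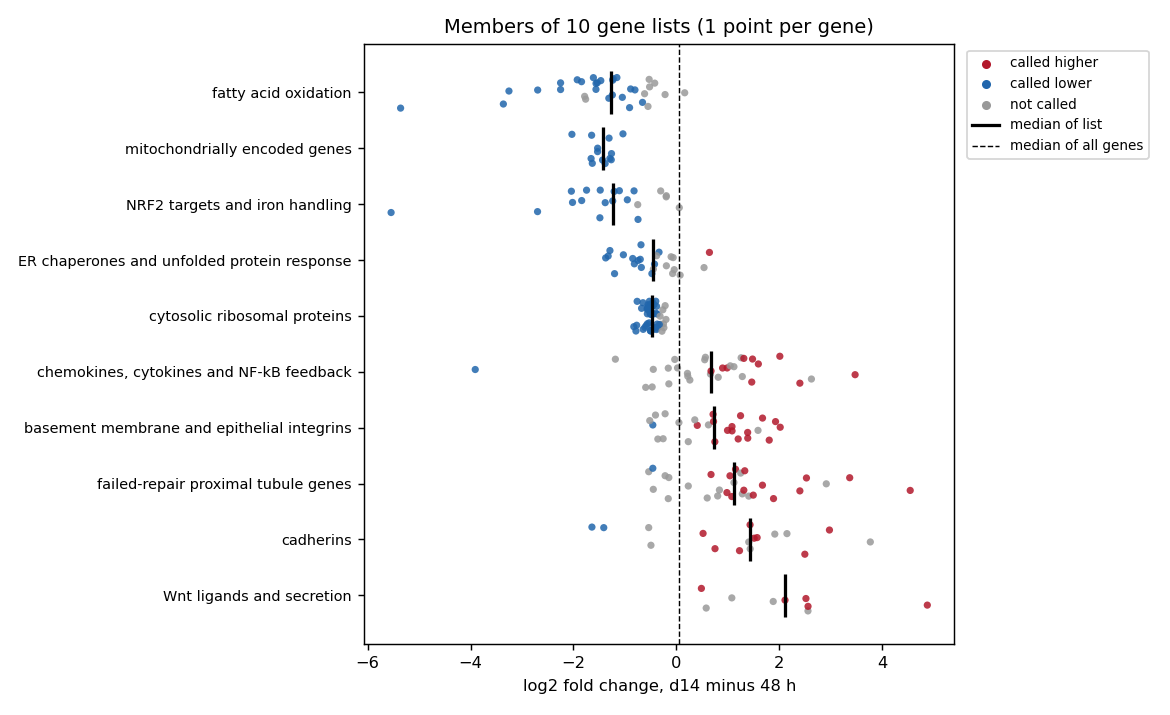
Log2 fold changes (d14 minus 48 h) of the tested members of 10 lists, 1 point per gene, coloured by call, with the list median as a bar and the median of all genes dashed. The ribosomal protein genes cluster tightly at a median of -0.48, while failed-repair genes and cadherins spread over several log2 units.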

How the data were processed

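The members and gene lists were chosen with earlier results of these data known. The authors deposited gene-level expected counts (RSEM output) as whole numbers, 1 column per library. The submitters' processing notes name RSEM 1.2.28, STAR 2.6.1 and, from other steps, R 3.6.3, DESeq2 1.26.0 and bcl2fastq 2.20. Not given in the sources used here were settings, annotation release and strand of counting. Totals ran from 8036054 to 30414758 counts over the Sox9 libraries, and the 92 spike-in rows, with 0 counts, were left out. Of 55385 genes 15519 passed edgeR's filterByExpr (minimum count 10, total 15). All 9 libraries entered 1 model by group, with TMM scaling and edgeR 4.0.16's quasi-likelihood test in R 4.3.3, and p-values were adjusted by Benjamini-Hochberg over all genes. Called means an adjusted p below 0.05. Tested on simulated counts for this comparison (15519 genes, 200 changed), the script recovered 79% of 4-fold and 60% of 2-fold changes, and 4 unchanged genes were called. The simulated counts had 1 spread per gene for all groups and far fewer changed genes than were called here. These rates therefore need not hold for the real libraries. Alternatives used DESeq2 1.42.0, limma 3.58.1, other scalings, filters and designs, single libraries left out and a length offset added after the data were seen. Named genes are 14 fixed by name, the 12 largest rises and 12 largest falls among called genes whose groups do not overlap and whose higher group averages 10 CPM or more, and up to 4 called members of each list with the smallest p; some of them are not reported here. Group and replicate come from the labels.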

Additional observations from a re-analysis of the deposited data

How the results depend on the processing

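Of the genes named here 147 passed the main test, and 131 of them passed under every alternative that gave them a value, other than the test against a 2-fold change (C5ar1, Mmp8 and Wnt7a had none under the stricter filter). The count of genes higher and lower at d14 was within 1.5 times the main 2604 and 2533 under DESeq2 (2898 and 2991), RLE scaling (2514 and 2634), limma voom (2469 and 2446), no filter (2269 and 2442), a stricter filter (2409 and 2632), the 6 Sox9 libraries alone (2158 and 2235) and the length offset (2051 and 2643). It was 333 and 321 in a test against a 2-fold change and 6812 and 934 without scaling beyond total counts. Leaving out 1 library at a time gave 1755 to 2496 higher and 1827 to 2645 lower. With the replicate number as a block 2289 genes were higher and 2125 lower. Same-numbered libraries did not deviate together (correlations of -0.048, -0.092 and -0.127), so the numbers do not pair the samples. Direction reversed for Havcr1 without 48 h replicate 3 (range over single libraries left out -1.29 to 0.23), Mki67 without 48 h replicate 1 (-1.26 to 0.79), Fos without d14 replicate 3 (-0.0584 to 0.65), Aqp2 with the length offset (0.0393), and, without scaling beyond total counts, Aqp2 (0.37), Canx (0.47) and Pdia6 (0.10), of which only Pdia6 had passed the main test. The cause was not tested. With 3 libraries a group the spread of the 48 h libraries limits what can be called. Genes that did not reach about 10 counts, at the median library size, in at least 3 libraries could not be tested. A gene could therefore enter the test through 1 group alone.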

Other observations

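Homeobox genes of the Hox clusters, which fix position along the body axis and keep their settings in adult kidney epithelium, differed by cluster. Of 31 Hox genes tested 13 were higher at d14 and 1 lower, where 16.8% and 16.3% of all genes were. All 8 tested genes of the Hoxb cluster were higher (median log2 fold change 1.58), and 5 of 6 of the Hoxd cluster (median 2.20). Among these 5, Hoxd11 was at 0 CPM in every 48 h library and 0.915, 1.31 and 0.408 CPM at d14 (7.61 ± 2.00). It entered the test through the d14 group alone, and the size of its fold is loosely set. No Hoxa gene was higher and 1 of 10 was lower, Hoxa10, at 31.2, 25.3 and 31.5 CPM at 48 h and 18.3, 21.9 and 15.9 CPM at d14 (-0.66 ± 0.15, adjusted p = 0.00602). None of 7 Hoxc genes was called in edgeR's quasi-likelihood test, where 2 were lower at an unadjusted p below 0.05. DESeq2 called 2 lower and limma voom none. Hoxd8 was at 35.5, 39.2 and 38.8 CPM at 48 h and 139, 163 and 202 CPM at d14 (2.15 ± 0.17, adjusted p = 2.37e-05), Hoxb8 at 19.5, 25.4 and 25.2 CPM at 48 h and 81.3, 75.2 and 96.7 CPM at d14 (1.86 ± 0.17, adjusted p = 3.94e-05), and Hoxd10 at 4.6, 6.47 and 4.98 CPM at 48 h and 30.2, 32.1 and 35.5 CPM at d14, where uninjured cells averaged 0.956 (2.63 ± 0.27, adjusted p = 6.65e-05). In these 3 genes the groups did not overlap. The genes of a cluster lie side by side with antisense transcripts between them, and whether the counting used strand is not stated in the labels. These genes were looked at after their values were seen.

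Symbols that share a stem were counted over 128 stems with at least 12 tested genes, chosen without regard to function and read after the values were seen. Of 17 histone lysine demethylases (Kdm) 13 were higher and none lower, with a median log2 fold change of 0.71 and a median exonic length of 8225 bases. Their changes were small and even: Kdm5b went from 21, 17.7 and 21.2 to 45.5, 37.1 and 44.9 CPM (1.08 ± 0.16, adjusted p = 0.000565) and Kdm3b from 36, 34.8 and 41.9 to 70.7, 61.7 and 64.6 CPM (0.80 ± 0.12, adjusted p = 0.000504). On the other side, 8 of 12 acyl-CoA thioesterases (Acot), 12 of 18 aldehyde dehydrogenases (Aldh) and 9 of 14 mitochondrial import genes (Timm) were lower, as were 31 of 50 genes of the large and 18 of 29 of the small subunit of the mitochondrial ribosome (Mrpl, Mrps). The last 2 stems had medians of -0.48 and -0.50, within the shift that scaling makes, and median lengths of 2394 and 2172 bases. The part of length in these counts was not tested. Among the Acot and Aldh genes called lower, some were highest in 48 h replicate 2. Acot3 was at 15.6, 57.2 and 20.3 CPM at 48 h, and Aldh3b1 at 18.7, 56.9 and 28.03 CPM. Others were highest in 48 h replicate 1, such as Acot4 (68.9, 50.16 and 55.96 CPM) and Aldh8a1 (267.2, 165.9 and 162.2 CPM). The part of single libraries in the counts by stem was not tested.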
